A study of Mus musculus with 6 samples.

Results

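The 39 genes described here are mouse genes whose RNA is known to be induced by interferons, out of 17068 genes in each deposited gene table. They were picked by name from what is known of interferon responses, not by a threshold on a measured value, and their rows were found by exact gene symbol. Earlier results of these data were known when they were chosen, so comparisons with all genes below are descriptions. All 39 have a row in each of the 11 gene tables, and no member was lost to a filter. They fall into the IFIT genes (3 members), the IFITM genes (3), the guanylate-binding proteins and immunity-related GTPases (GBP and IRG, 7), sensors of foreign nucleic acid and related proteins (6), interferon regulatory factors (IRF, 4), the ISG15 system (2), antiviral effectors (8) and further induced genes (6).

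The RNA came from haematopoietic stem cells (HSCs) sorted from bone marrow of Gfp-Lc3 mice, a genotype that every sample shared and that carries a fluorescent form of the autophagy protein LC3. Old and young mice were fed ad lib, fasted for 24 h, or fasted for 24 h and refed for 24 h, with 1 mouse and 1 droplet single-cell library for each of these 6 groups. About 30000 cells were sorted and about 10000 loaded per library. The authors deposited, for each of 11 clusters of the pooled cells, the log2 fold change of every gene in that cluster against all other cells. Old and young mice, or fed, fasted and refed ones, therefore cannot be compared from these values, and no value here has an error over animals. The clusters were made from the same expression values, so a cluster set against the rest is a description and not a test.

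Interferons bind receptors on the cell surface and, through JAK kinases, activate STAT transcription factors. Type I interferon acts on promoters through the interferon-stimulated response element (ISRE), which a complex with IRF9 binds, while interferon gamma acts through the gamma-activated site (GAS). The induced proteins block virus entry, sense foreign RNA and DNA, degrade nucleic acids, coat the vacuoles of intracellular pathogens, and feed back on the pathway itself. In mouse HSCs a brief exposure to interferon is known to push quiescent cells into the cell cycle, and mice that lack Irf2 or Irgm1 are known to have impaired HSCs.

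The promoters below are shown because they hold the letters of these elements in different arrangements, for genes of the IFIT, GBP, IRG, ISG15 and IFITM groups on which the results below turn. Each is the 160 bases before the annotated start in RefSeq (GRCm38.p6), written 5′ to 3′ on the gene's strand. Capitals mark matches to the ISRE core, GAAA repeated after any 2 bases (searched on both strands, so a match on the other strand reads TTTC, any 2 bases, TTTC), or to the GAS letters TTCNNNGAA, which read the same on both strands. They lie at chr19:34640729-34640888 (+) for Ifit1, chr19:34583369-34583528 (+) for Ifit3, chr11:58199396-58199555 (+) for Igtp, chr11:58214817-58214976 (+) for Irgm2, chr4:156200819-156200978 (-) for Isg15, chr3:142620503-142620662 (+) for Gbp2 and chr7:140967916-140968075 (+) for Ifitm1.
Ifit1: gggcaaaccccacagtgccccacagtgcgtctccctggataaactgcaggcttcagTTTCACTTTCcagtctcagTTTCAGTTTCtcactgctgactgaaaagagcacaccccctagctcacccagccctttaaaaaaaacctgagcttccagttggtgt
Ifit3: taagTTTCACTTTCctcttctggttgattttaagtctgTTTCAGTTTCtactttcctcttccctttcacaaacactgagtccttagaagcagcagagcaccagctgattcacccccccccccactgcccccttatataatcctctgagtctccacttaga
Igtp: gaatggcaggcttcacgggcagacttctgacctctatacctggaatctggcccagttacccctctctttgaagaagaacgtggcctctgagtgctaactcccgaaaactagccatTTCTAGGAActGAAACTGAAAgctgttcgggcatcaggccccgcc
Irgm2: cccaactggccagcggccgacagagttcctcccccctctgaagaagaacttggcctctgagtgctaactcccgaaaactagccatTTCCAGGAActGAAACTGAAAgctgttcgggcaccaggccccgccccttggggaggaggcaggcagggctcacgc
Isg15: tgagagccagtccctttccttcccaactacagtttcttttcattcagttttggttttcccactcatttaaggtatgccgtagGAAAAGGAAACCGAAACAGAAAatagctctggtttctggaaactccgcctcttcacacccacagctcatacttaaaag
Gbp2: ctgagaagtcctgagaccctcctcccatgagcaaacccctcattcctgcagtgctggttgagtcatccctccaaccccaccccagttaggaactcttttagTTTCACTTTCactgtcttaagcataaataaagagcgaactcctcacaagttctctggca
Ifitm1: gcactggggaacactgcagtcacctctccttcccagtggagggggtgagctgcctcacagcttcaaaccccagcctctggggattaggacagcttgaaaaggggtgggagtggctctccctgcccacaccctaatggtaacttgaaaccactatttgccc
A pair of ISRE matches stood in the Ifit1 promoter, at -104 and -85 from the start, and in the Ifit3 promoter, at -156 and -122. Igtp and Irgm2 held the same pair in the same order, a GAS match followed 11 bases later by an ISRE match. Isg15 held 3 overlapping ISRE matches, at -78, -72 and -66. In Bst2 a GAS match at -136 overlapped the first of 2 ISRE matches, at -130. Gbp2 had 1 ISRE match, at -59. Ifitm1 had no match in this window, which says only that these letters are absent there. The window lies inside the span of Ifitm1 in the GENCODE M21 annotation (140967221 to 140969825), so the bases before that start were not searched. The same holds for Irgm2, whose GENCODE span is 58199618 to 58222782.

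Among 31 of the 39 genes with a RefSeq promoter, 15 (48.4%) had an ISRE match within 250 bases before the start, against 3.46% of all 27025 genes with an entry. A GAS match was found in 10 (32.3%), against 8.13% of all genes. Gbp7, Igtp, Irgm2, Irf2 and Bst2 had both (5 genes, 16.1%), against 0.459% of all genes, and 11 had neither. All 6 GBP and IRG genes with an entry held an ISRE match, as did Ifit1 and Ifit3, while of the IFITM genes only Ifitm2 did (1 of 3). Parp14, Ly6e, Rtp4, Iigp1, Zbp1, Dhx58, Usp18 and Ifi27 had no entry in the table.

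**Figure D1:**
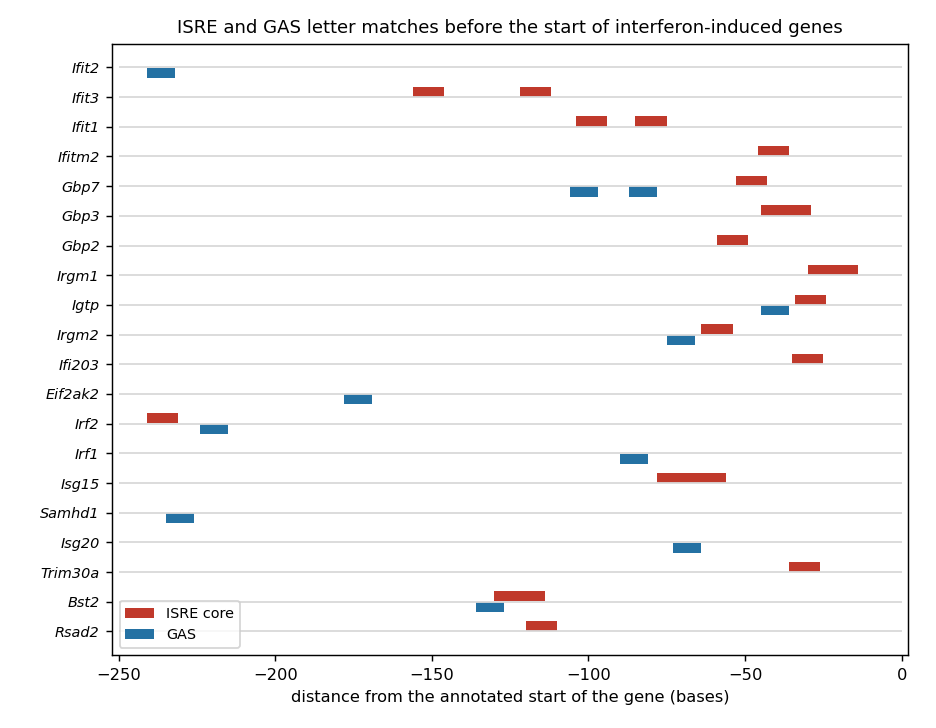
Positions of ISRE core and GAS letter matches in the 250 bases before the RefSeq start of each interferon-induced gene with at least 1 match; the x axis is the distance from the start in bases, red bars are ISRE matches and blue bars GAS matches. Igtp and Irgm2 each show a GAS bar just before an ISRE bar, and overlapping matches in Isg15, Bst2, Gbp3 and Irgm1 merge into longer bars.

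Several of the genes are neighbours, in the GENCODE M21 annotation of GRCm38/mm10. Ifit1, Ifit2 and Ifit3 lie within 99.3 kb on chromosome 19 (34550694 to 34650009), and Ifitm1, Ifitm2 and Ifitm3 within 55.9 kb on chromosome 7 (140954837 to 141010770). Gbp2, Gbp3 and Gbp7 lie within 108 kb on chromosome 3 (142530342 to 142638008). The annotated spans of Igtp and Irgm2 overlap on chromosome 11 (58199556 to 58222782), so reads could be assigned to either, and their values are uncertain to that extent. The same holds for Ifit3 and its near-identical copy Ifit3b and for members of the Gbp family. The rule by which reads were assigned to such genes is unknown here.

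The tables cover 22378 cells, a number inferred from the deposited p-values of genes seen in 1 cell. Clusters 0 to 4 held 4904, 3955, 3910, 3802 and 3747 cells, cluster 5 held 1188, and clusters 6 to 10 held 310, 267, 173, 112 and 10. The mean level of the 39 genes over all cells lay between 0.0355 and 19.9 counts per 10000 in the authors' deposited tables, not scaled to gene length, so levels are not compared between genes. Ifit2, Ifit3, Usp18 and Cmpk2 (4 of the 39) were below the median level of all genes. The 10 markers of long-term HSCs were detected in every cluster, at a summed level of 11.8 to 20.0 counts per 10000. Cd3d of T cells and Csf1r and Ccr2 of monocytes each averaged at most 0.0031 counts per 10000 over all cells in the authors' deposited tables. Other genes on the lists of mature-cell markers were not near 0, among them Lyz2 (2.66 counts per 10000), Klrb1c (0.303) and Nkg7 (0.137), per the authors' deposited tables. Red-cell and platelet markers summed to 10.4 counts per 10000 in cluster 6 and to between 1.95 and 3.90 in the other clusters.

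A gene is said here to meet the size rule in a cluster when the deposited log2 fold change is 0.5 or more in either direction, with a deposited adjusted p under 0.05. The p-value treats cells as replicates and served only as a filter on noise. By this rule 19 of the 39 genes were higher or lower in at least 1 cluster and 20 in none. That share, 48.7%, is near the background, since 40.1% of all detected genes, and 46.1% of those at or above the median level, met it in at least 1 cluster. Among the 6 clusters with over 1000 cells, 5 genes met it: Ifit1, Ifit3, Ifitm1, Iigp1 and Ifi44. They are 12.8% of the 39, against 14% of all detected genes, while of genes at or above the median level 4 of 35 members (11.4%) and 4.25% of all met it there. A mean over the cells of a cluster cannot tell fewer cells with a gene's RNA from less RNA in each cell.

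**Figure D2:**
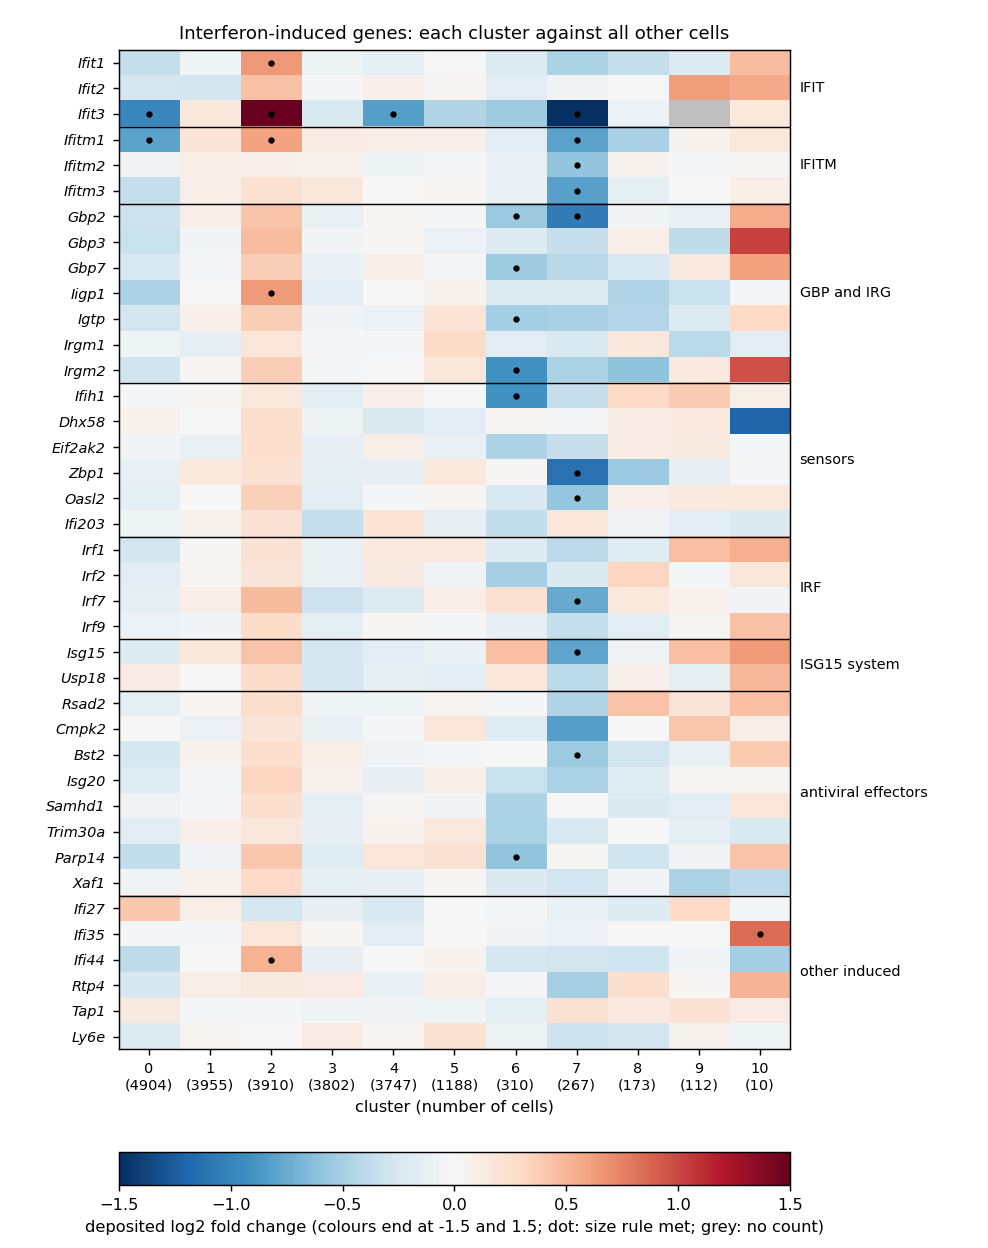
Deposited log2 fold change of each of the 39 genes (rows, grouped by role) in each cluster against all other cells (columns, with the number of cells); red is higher in the cluster, blue is lower, a dot marks the size rule and grey marks no count. The cluster 2 column is red for 36 of 39 genes, the cluster 0 column is blue for 35, and the dots of clusters 6 and 7 are all on lower genes.

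Among the 6 large clusters (0 to 5), cluster 2 was where most of these genes stood highest. In it 36 of 39 had a log2 fold change above 0 in the authors' deposited table, with a median of 0.27, against 0.02 over all detected genes. Of all detected genes 54.9% were above 0 in cluster 2. Of the 39, 5 met the rule as higher (12.8%) and 0 as lower, where 3.06% of all detected genes, and 1.2% of genes at or above the median level, were higher and 2.7% were lower. Among clusters 0 to 5, 32 of the 39 had their highest level in cluster 2, against 22.9% of all genes. The 7 exceptions were Ifitm2, highest in cluster 1, Irgm1, Cmpk2, Trim30a and Ly6e, highest in cluster 5, and Ifi27 and Tap1, highest in cluster 0.

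Cluster 0 leaned the other way. In it 35 of 39 were below 0 in the authors' deposited table, with a median log2 fold change of -0.17 against 0.01 over all detected genes. Of all detected genes 51.5% were above 0 in cluster 0. Ifit3 and Ifitm1 met the rule as lower (2 genes, 5.13% of the 39), where 6.2% of all detected genes did, so the count is no larger than the background. As higher, 0 of the 39 met it, against 2.42% of all detected genes. Of the 39, 20 were lowest in cluster 0 among clusters 0 to 5, 12 in cluster 3 and 3 in cluster 4, and 21.2% of all genes were lowest in cluster 0. The shares of all genes lowest in clusters 3 and 4 were not counted.

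**Figure D3:**
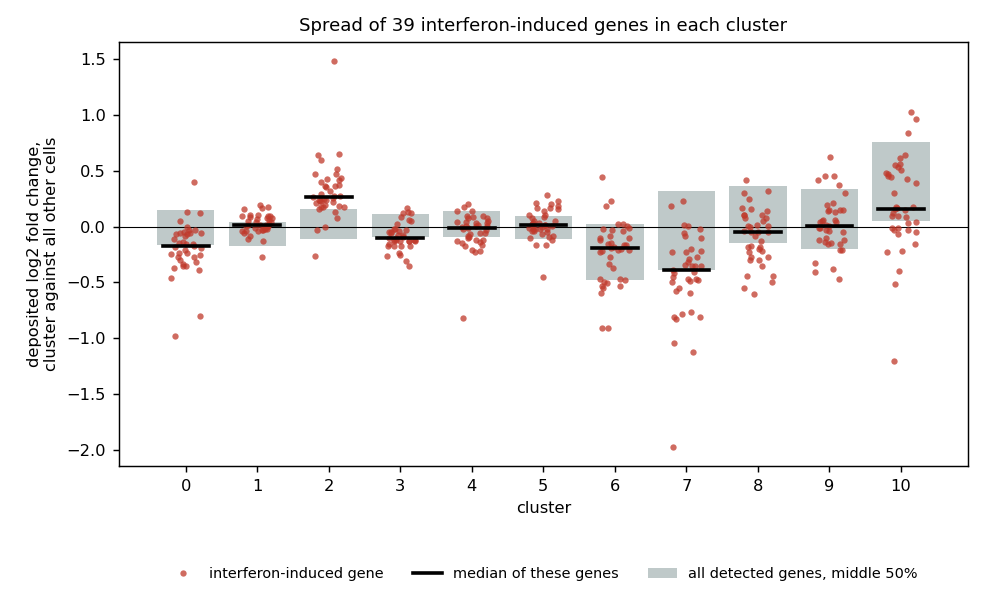
Deposited log2 fold change (y axis) of the 39 genes in each cluster against all other cells (x axis); points are genes, black lines their medians, and grey boxes the middle 50% of all detected genes. The median of the 39 genes lies above the grey box in cluster 2 (0.27) and only just below it in clusters 0 and 3 (-0.17 and -0.10). It lies inside the box in the other clusters, among them 6 (-0.19), 7 (-0.39, at the lower edge of the box) and 10 (0.16).

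To set these clusters directly beside each other, each gene's level in a cluster was expressed relative to its mean over all cells, using the deposited folds and the cell numbers. On this scale cluster 2 minus cluster 0 had a median log2 difference of 0.33 over the 39 genes, against 0.01 over all genes. The difference was above 0 for 37 of the 39, against 51.8% of all genes and 48.8% of those at or above the median level. It was at least 0.5 for 11 of the 39 (28.2%), where 14.5% of all genes reached 0.5. Restricted to genes at or above the median level, 9 of 35 members (25.7%) and 3.93% of all genes reached 0.5. Only Ifi27 (-0.52) and Tap1 (-0.12) were below 0. The summed level of the 39 genes was 78.4 counts per 10000 in cluster 2 and 53.6 in cluster 0, and between 44.5 (cluster 7) and 71.8 (cluster 10) in the others; the IFITM genes made up 52.0 counts of the sum in cluster 2 and 31.9 in cluster 0.

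**Figure D4:**
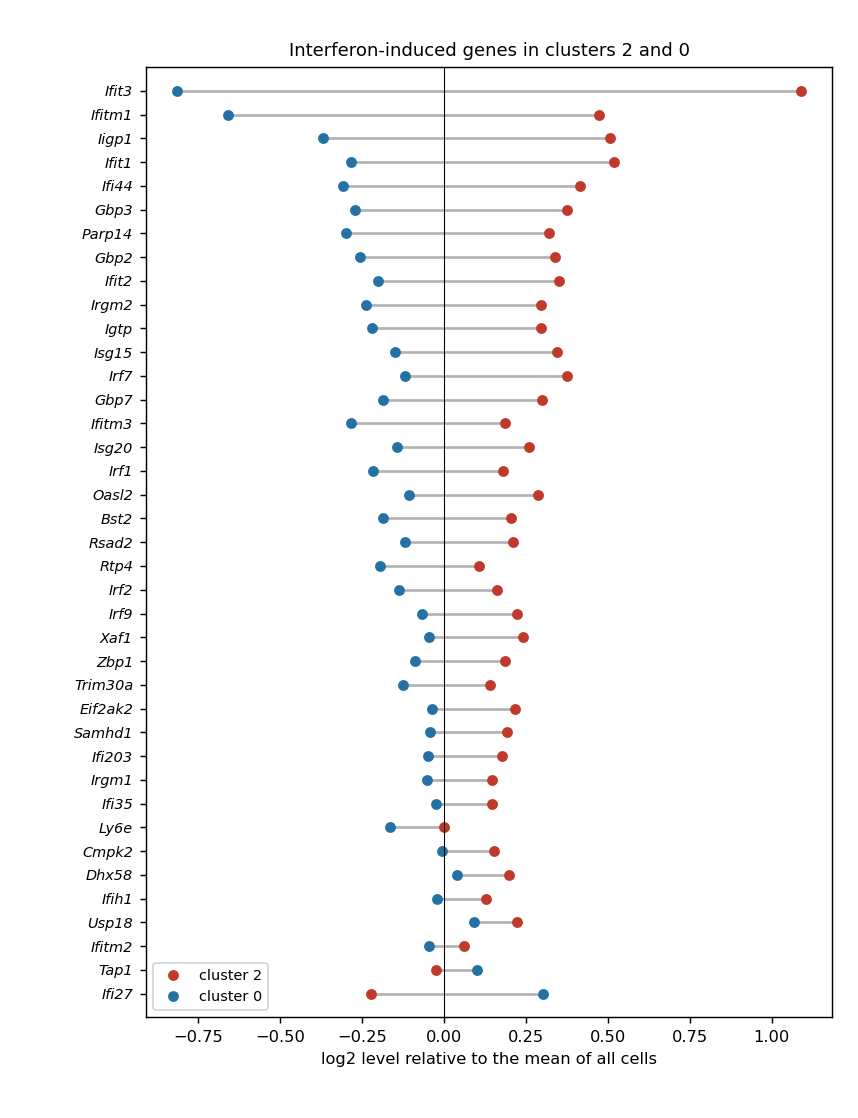
Log2 level of each gene relative to its mean over all cells (x axis) in cluster 2 (red) and cluster 0 (blue), with genes ordered by the difference. Red lies right of blue for 37 of the 39 genes; Ifit3 has the widest gap (1.90) and Ifi27 and Tap1 are turned round.

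The IFIT genes had the largest median difference of the groups between clusters 2 and 0. They encode cytoplasmic RNA-binding proteins: Ifit1 binds RNA whose cap lacks the host's methylation and blocks its translation, and IFIT3 stabilises IFIT1 in human cells. Ifit3 had a log2 fold change of 1.48 in cluster 2 in the authors' deposited table. In clusters 0, 1, 3, 4 and 5 its deposited values were -0.98, 0.17, -0.23, -0.82 and -0.45, so cluster 1 was the only other of these with Ifit3 above 0. It met the rule as higher in cluster 2 and as lower in clusters 0 and 4. In cluster 4 it was the only member to meet the rule (2.56% of the 39), where 0.836% of all genes were lower. Relative to all cells its log2 level was 1.09 in cluster 2 and -0.81 in cluster 0, a 3.74-fold difference derived from the deposited folds. Ifit3 rests on an estimated 930 counts over all cells. Ifit3b, its copy, had a log2 fold change of 2.02 in cluster 2 and -1.35 in cluster 0, per the authors' deposited tables. It rests on only an estimated 250 counts.

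Ifit1, with an estimated 6112 counts over all cells, was also highest in cluster 2 and lowest in cluster 0 among clusters 0 to 5. Its log2 fold change was 0.66 in cluster 2 and lay between -0.35 and -0.01 in clusters 0, 1, 3, 4 and 5 in the authors' deposited tables. Cluster 2 was thus the only one of the 6 large clusters in which Ifit1 was above the rest. Ifit2 had 0.44 in cluster 2, under the rule, with its lowest value in cluster 1 (-0.27) and not in cluster 0 (-0.25), in the authors' deposited tables. Cluster 2 minus cluster 0 was 1.90 for Ifit3, 0.80 for Ifit1 and 0.55 for Ifit2 on the log2 scale. The summed level of the 3 genes was 0.507 counts per 10000 in cluster 2 and 0.279 in cluster 0.

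The GBP and IRG genes encode GTPases that attack or mark the vacuoles of intracellular pathogens, or regulate that attack. All 7 were above 0 in cluster 2 and below 0 in cluster 0, per the authors' deposited tables. The median of their deposited log2 fold changes was 0.37 in cluster 2 and -0.30 in cluster 0. Iigp1, an effector IRG, was the only one to meet the rule in cluster 2, at 0.64 in the authors' deposited table. Its value was -0.46 in cluster 0 and lay between -0.17 and 0.05 in clusters 1, 3, 4 and 5 in the authors' deposited tables. The other 6 lay closer together in cluster 2, between 0.18 (Irgm1) and 0.47 (Gbp3) in the authors' deposited table.

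Cluster 2 minus cluster 0 was at least 0.5 for 5 of these 7, with log2 differences of 0.88 for Iigp1, 0.64 for Gbp3, 0.59 for Gbp2, 0.53 for Irgm2 and 0.52 for Igtp. Gbp7 reached 0.49. Irgm1, a regulatory IRG that holds the effector IRGs inactive on the cell's own membranes, had the smallest difference, 0.20, and was highest in cluster 5. Igtp and Irgm2 had nearly equal differences, but their annotated spans overlap, so the 2 values may share reads. Gbp7, which also held GAS and ISRE matches, and Gbp2, with an ISRE match only, lay near them. Any part of the promoter matches in these values was not tested.

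The IFITM genes encode membrane proteins that hinder the fusion of viruses with the cell, and they are known to be made in stem cells without added interferon. Their 3 members did not move alike. Ifitm1 had a log2 fold change of 0.60 in cluster 2 and -0.80 in cluster 0, and met the rule in both, in the authors' deposited tables. In clusters 1, 3, 4 and 5 its deposited value lay between 0.08 and 0.19, so cluster 0 was the only large cluster below the rest. Ifitm3 had 0.23 in cluster 2 and -0.35 in cluster 0, per the authors' deposited tables, in the same direction and under the rule. Ifitm2 had 0.07 in cluster 2 and -0.06 in cluster 0, per the authors' deposited tables, and its spread over the 6 large clusters was 0.14, the smallest of all members. Cluster 2 minus cluster 0 was 1.13 for Ifitm1 (2.19-fold, derived from the deposited folds), 0.47 for Ifitm3 and 0.11 for Ifitm2.

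Sensors lay above 0 in cluster 2 by small amounts. All 6 lay between 0.16 and 0.35 there in the authors' deposited table, and none met the rule. They were Ifih1 (MDA5) and Dhx58 (LGP2), which bind double-stranded RNA, the kinase PKR gene Eif2ak2, the Z-form nucleic acid sensor Zbp1, the oligoadenylate synthetase-like gene Oasl2 (0.35) and the PYHIN-family gene Ifi203. Cluster 2 minus cluster 0 had a median of 0.24 and reached 0.5 for none of the 6. Within clusters 0 to 5 their lowest level lay in cluster 3 for 5 of them, with Ifi203 at -0.35 in the authors' deposited table, and in cluster 4 for Dhx58.

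The 4 IRF genes lay between 0.20 and 0.47 in cluster 2 and between -0.27 and -0.08 in cluster 0, per the authors' deposited tables, with none past the rule. Irf7, which amplifies type I interferon production, had a log2 fold change of 0.47 in cluster 2, -0.15 in cluster 0 and -0.31 in cluster 3, per the authors' deposited tables. Irf9, a DNA-binding part of the complex that type I interferon activates, had 0.28 in cluster 2 and -0.08 in cluster 0, per the authors' deposited tables. Irf1 had 0.22 and its antagonist Irf2 0.20 in cluster 2 in the authors' deposited table. All 4 were thus above 0 in cluster 2 and below 0 in cluster 0.

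In the ISG15 system, Isg15, a ubiquitin-like protein joined to newly made proteins, had a log2 fold change of 0.43 in cluster 2 and -0.19 in cluster 0, per the authors' deposited tables. Usp18, which removes ISG15 and blocks the type I receptor, had 0.27 in cluster 2 and 0.12 in cluster 0, per the authors' deposited tables. Of clusters 0 to 5, both were lowest in cluster 3, with deposited values of -0.26 for Isg15 and -0.25 for Usp18. Neither met the rule in any of the 6 large clusters.

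All 8 antiviral effectors were above 0 in cluster 2 (0.17 to 0.40) and below 0 in cluster 0 (-0.37 to -0.01) in the authors' deposited tables, with none past the rule. The ADP-ribosyltransferase gene Parp14 had the largest difference of cluster 2 minus cluster 0, 0.62. Next were the exonuclease gene Isg20 (0.40), the virion-tethering Bst2 (0.39) and Rsad2 (0.33), which encodes viperin. The dNTPase gene Samhd1 (0.23) and the nucleotide kinase gene Cmpk2 (0.16), a neighbour of Rsad2, had the smallest, below Xaf1 and Trim30a.

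The further induced genes were split. Ifi44 met the rule as higher in cluster 2, with a log2 fold change of 0.52, and had -0.38 in cluster 0, per the authors' deposited tables. Ifi27, a mitochondrial membrane protein gene, ran the other way, with -0.27 in cluster 2 and 0.40 in cluster 0, per the authors' deposited tables. The peptide transporter gene Tap1 had -0.03 in cluster 2 and 0.13 in cluster 0, per the authors' deposited tables. Ly6e, a surface protein that restricts coronaviruses, had 0.00 in cluster 2 and was highest in cluster 5 (0.23) in the authors' deposited tables. In cluster 2 Ifi35 had 0.18 and Rtp4 0.13 in the authors' deposited table.

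Members with an ISRE match had a median cluster 2 minus cluster 0 difference of 0.49, with 6 of 15 at 0.5 or more. Those with a GAS match had 0.40 (3 of 10), those with neither 0.29 (2 of 11) and those with no promoter entry 0.22 (2 of 8). The ISRE and GAS groups are not separate, since 5 genes with both matches are counted in each. Igtp and Irgm2 are thus among those at 0.5 or more in both groups. The ISRE members at 0.5 or more were all IFIT, GBP or IRG genes. The ranges overlapped: Ifitm1, with no match in the window searched, had 1.13, and Ifitm2, with an ISRE match, had 0.11. The Ifitm1 window lies inside the gene's GENCODE span, so its absence of a match is uncertain to that extent.

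Clusters 2 and 0 also differed in HSC markers. The 10 markers of long-term HSCs summed to 19.1 counts per 10000 in cluster 2 and 12.0 in cluster 0, and Mllt3, for example, had a log2 fold change of 0.65 in cluster 2 and -0.78 in cluster 0, per the authors' deposited tables. Ly6a (Sca-1), one of these markers and itself known to respond to interferon, had 0.55 in cluster 2 and -0.79 in cluster 0, per the authors' deposited tables. Of the 10, 9 were above 0 in cluster 2 and 1 in cluster 0: Kit ran the other way, with -0.17 in cluster 2 and 0.10 in cluster 0, and Slamf1 was nearly level, with 0.11 in cluster 2 and -0.02 in cluster 0, per the authors' deposited tables. Markers of plasmacytoid dendritic cells, the main makers of type I interferon, summed to 3.69 counts per 10000 in cluster 2 and 3.43 in cluster 0, nearly all of it from Tcf4, Bst2 and Runx2, which HSCs also express and of which Bst2 is one of the 39 genes; Ccr9 and Ly6d were near 0. The sums for T and NK cells were 0.328 in cluster 2 and 0.537 in cluster 0, and for monocytes and macrophages 2.49 in cluster 2, with Ccr2 at 0 there, and 3.14 in cluster 0. Sums for neutrophils (0.225 in cluster 2, 0.212 in cluster 0) were close. Endothelial and stromal markers summed to 0.823 in cluster 2 and 0.686 in cluster 0, with 4 of 7 above 0 in cluster 2 and 1 in cluster 0. Of them, Kdr (0.27 in cluster 2, -0.61 in cluster 0) met the rule as lower in cluster 0, per the authors' deposited tables. Pecam1 ran the other way (-0.14, 0.27). Red-cell and platelet markers summed to 2.24 in cluster 2 and 2.91 in cluster 0. The platelet genes Ppbp (-0.56 in cluster 2, 0.98 in cluster 0), Pf4 (-0.43, 0.79) and Gp9 (-0.41, 0.75) ran opposite to most of the 39 genes, and they and Klf1 (0.04, 0.70), a red-cell transcription factor gene, met the rule as higher in cluster 0, per the authors' deposited tables. The B and plasma cell markers summed to 0.406 counts per 10000 in both clusters, with 3 of the 6 above 0 in each. Of them, Mzb1, with only an estimated 102 counts over all cells, had 2.30 in cluster 2 and -2.79 in cluster 0, past the rule in both. Jchain, with an estimated 147 counts, had 0.37 in cluster 2 and -0.70 in cluster 0, past the rule in cluster 0 only, per the authors' deposited tables. The part of any of these marker differences in the interferon result was not tested.

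Cluster 7 was the lowest of the 11 clusters by the median and by the summed level of these genes. In it 35 of 39 were below 0, with a median log2 fold change of -0.39, where 46.5% of all detected genes were above 0. The median was -0.04 over all detected genes and -0.11 over those at or above the median level, in the authors' deposited table. As lower, 10 met the rule (25.6%), where 11.3% of all detected genes, and 15.3% of those at or above the median level, did, and none met it as higher, against 2.19% of all detected genes. They were Ifit3 (-1.98), Zbp1 (-1.12), Gbp2 (-1.04), Ifitm3 (-0.81), Ifitm1 (-0.81), Isg15 (-0.79), Irf7 (-0.76), Ifitm2 (-0.60), Oasl2 (-0.58) and Bst2 (-0.55) in the authors' deposited table. All 3 IFITM genes were among them, and their summed level was 24.8 counts per 10000 in cluster 7, the lowest of the 11 clusters. Ifitm2, nearly level across the 6 large clusters, thus differed here. Cmpk2 had -0.82 without passing the p filter, while Tap1 (0.23) and Ifi203 (0.19) were above 0, in the authors' deposited table.

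Cluster 7 was also the cluster richest in mitochondrially encoded RNA. The 13 mitochondrially encoded genes summed to 935 counts per 10000 in cluster 7 and to between 289 and 448 in the others, and all 13 had a log2 fold change above 0 there (median 1.17). Levels are shares of each cell's counts, and the part of this in the lower interferon-induced genes was not tested. Its long-term HSC markers summed to 15.8 counts per 10000, above cluster 0 (12.0). Its endothelial and stromal markers summed to 1.10 counts per 10000, against 0.545 to 0.833 in the other clusters, and its neutrophil markers to 0.389, a sum only cluster 10 exceeded (0.444). The part of these markers in the lower values of cluster 7 was not tested.

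In cluster 6 most genes of the tables lay below 0, with a median log2 fold change of -0.23 over all detected genes and -0.19 over the 39. Of the 39 genes 33 were below 0 and 6 met the rule as lower (15.4%), close to the 14.4% of all detected genes that did, so the count is not a result about these genes. The 6 were Ifih1 (-0.91), Irgm2 (-0.91), Parp14 (-0.60), Gbp2 (-0.55), Gbp7 (-0.53) and Igtp (-0.50) in the authors' deposited table. With folds centred on the median of all detected genes, Irgm2 and Ifih1 were the 2 that still met it. The GBP and IRG genes were 7 of 7 below 0 in both clusters, with a median deposited log2 fold change of -0.50 in cluster 6 and -0.42 in cluster 7. The IFITM genes lay between -0.16 and -0.10 in cluster 6 in the authors' deposited table. Isg15 (0.45), Irf7 (0.23) and Usp18 (0.18) were above 0 in cluster 6 and below 0 in cluster 7 (-0.79, -0.76 and -0.41 in the authors' deposited table). In cluster 6 the mitochondrially encoded genes summed to 289 counts per 10000, the lowest of the 11 clusters, and the red-cell and platelet markers to 10.4, the highest. Cd3d (4.94), Ly6c2 (4.94) and Ccr2 (5.22) stood far above the rest in cluster 6 without meeting the rule, on an estimated 81, 96 and 35 counts over all cells, per the authors' deposited tables. The part of any of these in the values of cluster 6 was not tested.

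In clusters 1, 3, 5, 8 and 9 none of the 39 genes met the rule, where 1.72%, 2.1%, 1.08%, 7.05% and 3.58% of all detected genes did in either direction. Cluster 3 was still one-sided, with 31 of 39 below 0 and a median log2 fold change of -0.10. Over all detected genes the median in cluster 3 was 0.01, with 52.4% above 0. Of the 39 genes, Ifi203 (-0.35) and Irf7 (-0.31) were lowest there, while the IFITM genes were above 0 (0.05 to 0.17) in the authors' deposited table. In cluster 1 the median was 0.01 against -0.06 over all genes. Cluster 5, with a median of 0.01, held the highest Irgm1 (0.28) and Ly6e (0.23) of the 6 large clusters in the authors' deposited tables. Cluster 4, where Ifit3 alone met the rule, had a median of -0.01.

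Clusters 8, 9 and 10 were too small to read closely. In cluster 8 the lowest values were those of Irgm2 (-0.60) and Zbp1 (-0.55) and the highest that of Rsad2 (0.42) in the authors' deposited table, none past the rule. Cluster 9 had no Ifit3 count in 112 cells, where 4.65 counts would be expected from the mean over all cells; a count of 0 allows a count of Ifit3 in up to 2.68% of its cells, which limits cells with a count and not cells that express it. Cluster 10, with 10 cells, had 1 gene past the rule, Ifi35 (0.84), or 2.56% of the 39 against 2.51% of all genes higher, and 31 of the 39 genes had fewer than 10 expected counts there.

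The wider pathway was read from lists chosen by name. The 10 interferon genes themselves, among them Ifnb1 and Ifng, were not analysed here. Of the 6 receptor genes none met the rule in clusters 0 to 5, where 14% of all detected genes met it in at least 1. In a list this short, a count of 0 says little. Ifnar1 was lower in cluster 6 (-0.81) and Ifngr2 lower in cluster 7 (-0.69) in the authors' deposited tables. Of all detected genes, 14.4% were lower in cluster 6 and 11.3% in cluster 7. The median log2 fold change over all detected genes was -0.23 in cluster 6 and -0.04 in cluster 7. The signal carrier Stat2 had 0.36 in cluster 2 and -0.22 in cluster 0, per the authors' deposited tables, under the rule in both. Stat2 was also lower in cluster 6 (-0.51), against the same background, in the authors' deposited table. Named after its value was seen, the kinase gene Jak2 was higher in cluster 10 (1.25) in the authors' deposited table. That cluster has only 10 cells, and the median log2 fold change over all detected genes there was 0.37.

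The 8 feedback genes had a median log2 fold change of 0.10 in cluster 2 and -0.12 in cluster 0, per the authors' deposited tables. Of them, Socs2 (1.53) and Cish (1.03) were higher in cluster 2, and Socs2 (-1.16), Cish (-0.94) and Socs1 (-0.50) lower in cluster 0, per the authors' deposited tables. Socs1, the inhibitor of JAK kinases best known for interferon gamma, had 0.47 in cluster 2 in the authors' deposited table, under the rule. Socs2 and Cish are best known as targets of STAT5 downstream of other cytokines. Socs3 had -0.42 in cluster 2, and was higher in cluster 9 (1.58) and lower in cluster 8 (-1.04) in the authors' deposited tables. Of 12 upstream sensing genes none met the rule in clusters 0 to 5, and of 8 other IRF-related genes none did. Of all detected genes 14% met it in at least 1 of these clusters, so counts of 0 in such short lists say little.

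Among 54 further interferon-stimulated genes, 14 met the rule as higher and 1 as lower in cluster 2 (45 above 0), where 3.06% of all detected genes were higher and 2.7% lower. In cluster 0, 2 met it as higher and 9 as lower (14 above 0), where 2.42% of all detected genes were higher and 6.2% lower. The chemokine genes Cxcl10 and Cxcl9, classic targets of interferon gamma, had log2 fold changes of 2.78 and 2.48 in cluster 2 in the authors' deposited table. In cluster 0 the deposited value was -2.16 for Cxcl10, which met the rule, and -1.04 for Cxcl9, which did not. Ifi204, a PYHIN-family gene, had 2.09 in cluster 2 and -1.76 in cluster 0, per the authors' deposited tables. These were rare RNAs, with an estimated 1417 counts of Cxcl10, 338 of Cxcl9 and 87 of Ifi204 over all cells. Of the 14, only Gbp5, Gbp8 and Tgtp2 were at or above the median level of all genes. The 3.06% share is thus not matched for level, and no share was counted for genes below the median.

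Named after their values were seen, the other 11 higher in cluster 2 were Ifit3b (2.02), Gbp9 (1.44), Gbp6 (1.42), Gbp4 (1.36), Ifit1bl1 (1.35), Oasl1 (0.77), Gbp8 (0.71), Gbp5 (0.64), Tgtp1 (0.59), Phf11b (0.56) and Tgtp2 (0.53) in the authors' deposited table. Of these, 9 belong to the IFIT, GBP and IRG families. Ifit3b, Ifit1bl1 and Oasl1 were rare too, with an estimated 250, 211 and 858 counts over all cells. Tgtp1 and Tgtp2 are near-identical copies, and their values are uncertain to that extent. Ifi27l2a, a relative of Ifi27, ran the other way like Ifi27, with -0.58 in cluster 2 and 0.90 in cluster 0, and it reached 3.21 in cluster 8, per the authors' deposited tables. Lgals9 was higher in cluster 0 (0.64 in the authors' deposited table). In cluster 7, 49 of the 54 were detected, with 20 above 0 and a median log2 fold change of -0.12. Of them 13 were lower and 1 higher, where 11.3% of all detected genes were lower and 2.19% higher, and the immunoproteasome genes Psmb8, Psmb9 and Psmb10 had -0.79, -0.69 and -0.51 there in the authors' deposited table.

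**Figure D5:**
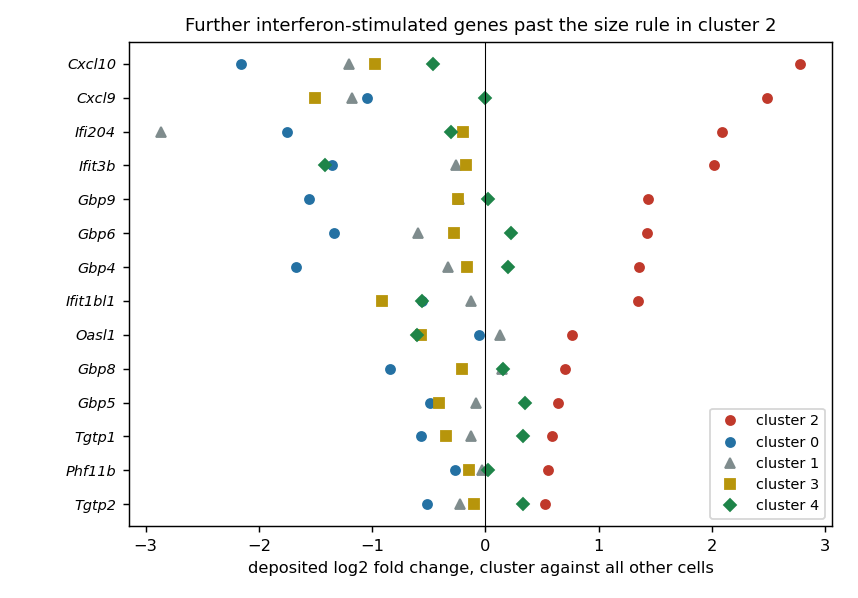
Deposited log2 fold change against all other cells (x axis) of the 14 further interferon-stimulated genes that met the size rule as higher in cluster 2, shown for clusters 2, 0, 1, 3 and 4. The genes were picked by their cluster 2 value; above 0 lie 0 of the 14 in clusters 0 and 3, 2 in cluster 1 and 8 in cluster 4, the highest there being Gbp5, Tgtp1 and Tgtp2 (0.33 to 0.35).

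The authors also deposited a log2 fold change of a score for each of many gene sets, and 22 sets carry interferon, IFN, OAS or antiviral in their name. They were scored on the same cells, and their member genes were not analysed here, so they are another reading of the same RNA. In cluster 2, 21 of the 22 had a log2 fold change of the score above 0, with a median of 0.09, where 61.7% of all 2910 sets with a fold were above 0, in the authors' deposited table. In cluster 0, 4 of 22 were above 0 (median -0.05; 63.8% of all sets), and in cluster 3 also 4 (48.4% of all sets). Cluster 4 had 21 of 22 above 0 at a median of only 0.03, where 59.7% of all sets were above 0. In cluster 6 none was (median -0.24), but only 4.6% of all sets were above 0 there, and cluster 7 had 4 (median -0.09; 26.3% of all sets). In the small clusters 9 and 10, 18 and 22 of the 22 were above 0 (medians 0.08 and 0.25), where 70.2% and 96.5% of all sets were. The set named for interferon alpha and beta signaling had 0.14 in cluster 2, -0.11 in cluster 0 and -0.25 in cluster 7, per the authors' deposited tables.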

How the data were processed

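RNA of sorted HSCs was measured by droplet single-cell sequencing in 6 libraries of 1 mouse each. Scanpy and the mm10 build were used, per the submitters' processing notes. The sources used here do not give the aligner, read assignment, cell filters, doublet handling, clustering or test. The 22 tables deposited by the authors pool the libraries and set each of 11 clusters against the remaining cells, once for genes and once for pathways. They hold no column for a single library.

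Per the file headers and values, the authors' gene tables give the log2 mean level, whose linear values sum to 10000 per table, a log2 fold change, a p-value and its adjusted p-value. The pathway tables deposited by the authors give a test score, a log2 fold change and p-values for 2922 sets, of which 12 have no fold. How the deposited fold was computed is not stated in the labels; it may be one of mean log values turned back to a linear scale and not of mean levels, so levels and fold differences derived from it are approximate. A deposited log2 fold change beyond 10 in size was read as no count on one side; the deposited values leave a gap between -14.0 and -5.80.

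From the deposited values, cell numbers were inferred through genes seen in 1 cell, of which 19 were used. The cells that held them had a median of 11707 counts (4239 to 22599). Estimated counts are the mean level times this median and the number of cells, and cover no error beyond counting. Of the 17068 genes, 13 had no count in any cluster. Levels relative to all cells were derived from the folds and the cell shares; their weighted means departed from 1 by at most 2.47% for the 39 genes. Where no count was seen, up to 3 counts were taken as possible.

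The size rule was a log2 fold change of at least 0.5 and an adjusted p-value under 0.05 as deposited, used as a filter on noise and not as evidence between animals. Named genes were all 39, plus, from each wider list, those that met the rule in clusters 0 to 9, up to the 4 largest; others are said to be named after their values were seen. The 39 genes and all lists were chosen with earlier results of these data known. Lists were written by hand, and markers or pathway genes without a row, such as Mx1, Cd3e and Siglech, were not analysed here. Promoters were searched in the 250 bases before the RefSeq start, with Python 3.11.15, numpy 2.4.6 and pandas 2.3.3. On simulated counts, the inferred cell numbers were required to match the true ones. Relative levels were compared there only for genes of higher level and with no set limit. Their error for rare genes such as Ifit3 is thus not known. Alternatives were a log2 fold minimum of 1, no filter on p, members at or above the median level, and folds centred on the median of all detected genes.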

Additional observations from a re-analysis of the deposited data

How the results depend on the processing

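No paired analysis was possible because each age and feeding group is 1 library and the tables pool them; leaving out a library could not be run for the same reason. With a log2 fold minimum of 1, the counts of members past the rule were 0 in cluster 0, 1 in cluster 2 (Ifit3), 0 in cluster 4, 0 in cluster 6, 3 in cluster 7 (Ifit3, Gbp2 and Zbp1) and 0 in cluster 10. Among members at or above the median level, 1 was left in cluster 0 (Ifitm1) and 0 in cluster 4, since Ifit3 lies below that level. With no filter on p the counts were 2 in cluster 8, 1 in cluster 9 and 11 in cluster 10. With folds centred on the median of all detected genes they were 2 in cluster 6 (Irgm2 and Ifih1), 1 in cluster 8 (Ifitm1) and 0 in cluster 10. The other counts stayed within 1.5 times of those reported, and of 25 calls on single genes none changed direction: 19 held when centred and 4 with the fold minimum of 1. Depth limits cluster 10 most, where the median member had 4.92 expected counts, against 55.1 in cluster 9 and 2412 in cluster 0. Age, feeding and mouse cannot be told apart within a cluster, because the share of each library in it is not in the tables used here.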
